A study of Mus musculus with 4 samples.

Results

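The loci of 10 mouse genes of epithelial identity were examined: the Grainyhead-like factors Grhl1, Grhl2 and Grhl3, the zinc finger factors Ovol1 and Ovol2, the splicing regulators Esrp1 and Esrp2, and the adhesion genes Cdh1, Cdh16 and Epcam. They were taken by name, and every accessible region in the gene body or within 50 kb of it was included, which gave 559 of the 560228 merged regions of the data set. A region is the union of peaks of any library that overlapped by at least 1 bp. ATAC-seq, which maps exposed DNA by where a transposase cuts it, was run on mpkCCD clone 11, a cultured mouse line derived from the cortical collecting duct of the kidney. Cells confluent on permeable supports were moved to medium free of serum and hormones and received, for 30 minutes, either vehicle or 0.1 nM dDAVP, an analog of vasopressin that acts on its V2 receptor. Both groups are this 1 cloned line, so genotype does not differ by group, at 2 libraries per group and 50000 cells per library. No label says that the libraries are separate cultures. All p-values therefore measure only the spread between these libraries, which may be technical.

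Epithelial cells are held together by cadherins at adherens junctions, and the genes that maintain this state form a small regulatory circuit. Grainyhead-like factors bind enhancers and promoters of junction genes and can open chromatin there, Ovol factors repress genes of the mesenchymal state, and Esrp proteins set the epithelial pattern of splicing. Zeb and Snail factors act against them, repressing Cdh1 and other epithelial genes through E-boxes in their promoters.

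The 4 peak lists held between 205771 and 393956 peaks, with vehicle replicate 1 the longest, dDAVP replicate 1 next at 291454, vehicle replicate 2 at 206972 and dDAVP replicate 2 the shortest. The lists give positions only, so sequencing depth is unknown, and where a library has no peak the site was not called in it, which does not show that it was closed. The graded value used below is width, the summed width in bp of a library's peaks in a region. Of 10 principal cell genes taken as markers of the labelled cell type, 7 had a peak within 1 kb of a gene end in all 4 libraries, among them Aqp2 and Scnn1a, while Aqp3, Scnn1b and Avpr2 had one in 2 libraries. Over all protein-coding genes the share was 65.0%, so the principal cell count is near it. Of 10 leukocyte and endothelial genes 2, Lyz2 and Kdr, had one in all 4 libraries. Cd3e, Cd79a and Cdh5 had one in 3 libraries and Pecam1 in 2. Ptprc, C1qa, C1qb and Tek had none in any library, as had 4203 of all 21887 protein-coding genes.

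Promoter sequences were available for Grhl1 (a pair of annotated starts), Grhl3 and Epcam, and for Ovol2, from RefSeq (build GRCm38.p6, which is the mm10 assembly). The 250 bases before the start are shown for those of Grhl1, Grhl3 and Epcam, because they contrast open and uncalled promoters of like and unlike composition. Each is written 5′ to 3′ on the gene's own strand, and capitals mark matches to the motifs searched.
Grhl1 first start, chr12:24572037-24572286, plus strand: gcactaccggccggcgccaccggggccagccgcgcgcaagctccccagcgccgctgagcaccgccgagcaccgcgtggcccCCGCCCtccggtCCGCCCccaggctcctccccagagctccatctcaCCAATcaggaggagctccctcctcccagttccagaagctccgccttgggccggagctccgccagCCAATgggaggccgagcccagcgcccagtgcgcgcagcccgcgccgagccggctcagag
Grhl1 second start, chr12:24580469-24580718, plus strand: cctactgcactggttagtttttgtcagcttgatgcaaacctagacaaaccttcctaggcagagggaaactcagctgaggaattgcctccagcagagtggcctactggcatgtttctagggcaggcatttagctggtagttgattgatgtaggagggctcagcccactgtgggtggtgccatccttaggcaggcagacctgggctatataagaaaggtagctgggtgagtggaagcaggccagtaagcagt
Grhl3, chr4:135573633-135573882, minus strand: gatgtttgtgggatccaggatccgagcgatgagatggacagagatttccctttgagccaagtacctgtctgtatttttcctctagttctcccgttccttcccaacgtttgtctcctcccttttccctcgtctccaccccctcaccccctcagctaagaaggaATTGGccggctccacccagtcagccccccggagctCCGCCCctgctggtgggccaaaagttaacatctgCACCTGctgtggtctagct
Epcam, chr17:87635729-87635978, plus strand: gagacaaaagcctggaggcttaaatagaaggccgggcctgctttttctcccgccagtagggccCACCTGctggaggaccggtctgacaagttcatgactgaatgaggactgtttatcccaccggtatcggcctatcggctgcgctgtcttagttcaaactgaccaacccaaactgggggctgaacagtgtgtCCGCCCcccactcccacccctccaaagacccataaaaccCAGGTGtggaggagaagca

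A peak covered part of the promoter window, from 250 bases before to 50 after the start, in all 4 libraries at the first start of Grhl1, at Ovol2 and at Epcam. Of all 32851 RefSeq promoter windows 41.6% were covered in all 4. The second start of Grhl1 was covered in vehicle replicate 1 and dDAVP replicate 2 only, and the Grhl3 promoter in no library. The first Grhl1 promoter had 27 CpG dinucleotides in 250 bases, an observed to expected ratio of 0.793, and Ovol2 had 20, a ratio of 0.753, against a median ratio of 0.373 over all promoters. Among all promoters with a ratio of 0.6 or more, 85.8% were covered in all 4 libraries, and below it 18.8%. Epcam and Grhl3 both lie in the lower class, with 8 CpG each and ratios of 0.405 and 0.431, and differed in that Epcam was covered in 4 libraries and Grhl3 in none.

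The motif search took exact matches on both strands to 10 short sequences. CACCTG, the E-box recognised by Zeb and Snail factors, was found in the promoters of Epcam and Grhl3 and is present in 17.2% of all promoters. In Epcam the matches began 187 and 19 bases before the start, and in Grhl3 the match also began 19 bases before it. A GC box, GGGCGG, was in the first Grhl1, the Grhl3 and the Epcam promoters (32.7% of all promoters), and CCAAT was in the first Grhl1 and the Grhl3 promoters (33.8%). No member promoter held AACCNGTT, a Grainyhead motif (1.79% of all promoters), or CCGTTA, an Ovol motif (2.18%). Nor did any hold TATAAA (12.4%), TGACGTCA, the cAMP response element (1.55%), its shorter form TGACG (17.8%), TGANTCA, the AP-1 motif (6.75%), and CCGGAAG, an ETS motif (6.91%). TGACG is contained in TGACGTCA, so those shares overlap. A match is a description of the letters and not a bound site.

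Counting a peak within 1 kb of either end of the gene, 9 of the 10 genes were open in all 4 libraries, against 65.0% of 21887 protein-coding genes. The exception was Grhl3, which had no peak at either end in any library. It is on chromosome 4, where 57.8% of genes were open by this count, and Esrp1 on the same chromosome was open. Most of these regions were wide. The 11 gene-end regions held by all libraries had a median width of 1660 bp, against 1105.5 bp at ends of other genes in the same windows. Over all 88231 regions held by every library, most of them away from these ends, it was 467.2 bp. Among genes with an all-library region at an end, 34.0% and 44.2% had one as wide as those of Cdh16. For the widest, at Esrp2, it was 0.654%, and a small region beside that one measured 134.8 bp.

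Among the transcription factors, Grhl2, known as an activator of Cdh1 and of claudin genes, had the widest gene-end region, at its lower-coordinate end (chr15:37232352-37234777). Its peaks there measured 1865 bp in vehicle replicate 1, 2340 bp in vehicle replicate 2, 2337 bp in dDAVP replicate 1 and 2065 bp in dDAVP replicate 2. The treatments overlapped, with a vehicle library at both extremes. Of the 14061 genes with an all-library region at an end, 2.12% had a region this wide. At the first start of Grhl1 (chr12:24571643-24572750) the peaks measured 942, 1091, 1096 and 1107 bp in the same order of libraries. Vehicle replicate 1 was the low value and the other libraries were close to equal, and 46.8% of genes had a gene-end region as wide.

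The higher-coordinate end of Ovol1, a repressor of the mesenchymal program in several epithelia, lies within 1 kb of the gene Ap5b1, and the region there (chr19:5559856-5561650) belongs to either or both. Its widths were 1758, 1794, 1762 and 1782 bp, a coefficient of variation over the libraries of 0.957%, so all 4 were close to equal. At Ovol2, which acts alongside Ovol1 and is annotated on the minus strand, the region over the start (chr2:144330524-144332431) measured 1729, 1570, 1556 and 1807 bp, and the treatments overlapped.

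The splicing regulators had the widest and the third widest gene-end regions of the 10 genes. Esrp2 had peaks of 2868 and 2738 bp in the vehicle libraries and 2391 and 2447 bp in the dDAVP libraries at its higher-coordinate end (chr8:106134620-106137487), in a gene 6.9 kb long. Both vehicle values were above both dDAVP values. Only 0.654% of genes had a gene-end region as wide. Esrp1 had 2099 and 2155 bp in vehicle and 2107 and 1755 bp in dDAVP at its higher-coordinate end (chr4:11386326-11388506), with dDAVP replicate 2 the low value.

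Among the adhesion genes, Cdh1, which encodes E-cadherin, measured 1457, 1759, 1527 and 1432 bp at its lower-coordinate end (chr8:106602931-106604713), and vehicle replicate 2 was the high value. Epcam, a homophilic adhesion molecule of simple epithelia, measured 1733, 1595, 1564 and 1748 bp over its start (chr17:87635561-87637308), with each treatment holding 1 of the higher and 1 of the lower values. Cdh16, the kidney-specific cadherin, was open at both ends. Its lower end (chr8:104601567-104603323) had 1178, 1378, 890 and 1346 bp and its higher end (chr8:104623856-104625269) had 802, 1414, 1150 and 986 bp. These were the most variable of the wide gene-end regions, with coefficients of variation of 18.6% and 23.9%.

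**Figure D1:**
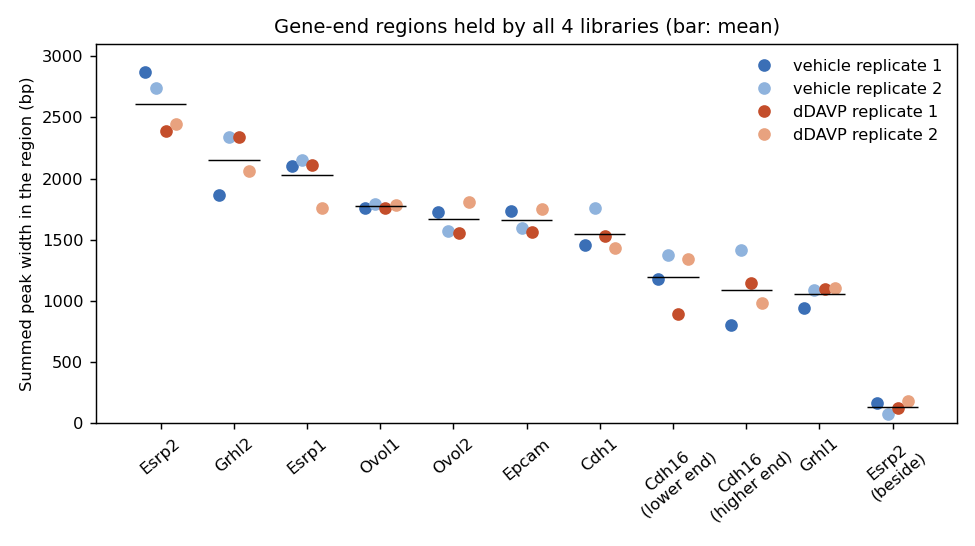
Summed peak width in bp (vertical axis) of the 11 gene-end regions held by all libraries, with a point per library (blue, vehicle; red, dDAVP) and a bar at the mean of 4. Esrp2 is widest at a mean of 2611 bp, its small neighbouring region is narrowest at 134.8 bp, and in 9 of the 11 the treatments overlap. Of all 88231 all-library regions, 12.9% had both dDAVP values above both vehicle values and 17.5% the reverse.

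Counting all places, the surroundings of the genes ranged from 8 regions at Esrp1 to 151 at Grhl2, in windows of unlike length. Of the 559 regions, 117 (20.9%) were held by all 4 libraries, against 15.7% of all regions, and 285 (51.0%) by 1 library alone, against 53.1%. Of those 285, 145 were found in vehicle replicate 1, the longest list. By place, 11 of 20 regions at the ends of the 10 genes were held by all libraries and 19 of 33 at ends of other genes, but 29 of 188 inside the genes, 17 of 126 inside other genes and 41 of 192 outside genes. Regions away from gene ends were narrower and varied more, with a median coefficient of variation of 37.6% inside the genes against 9.08% at their ends.

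Grhl2 had 151 regions, 26 of them in all libraries, and 15 of these lie inside its body of 130.7 kb. Only 1.93% of protein-coding genes had as many, but per length the locus was ordinary for its chromosome: 11.3 all-library regions per 100 kb of window against a median of 10.8 for genes of chromosome 15. The widest away from the promoter was 33.0 kb below the gene (chr15:37197988-37199835), with 1175, 1508, 1374 and 1055 bp in vehicle replicates 1 and 2 and dDAVP replicates 1 and 2. Next came one inside the gene (chr15:37312606-37313794) with 898, 772, 605 and 1158 bp. In both, the treatments overlapped.

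Grhl1 had 85 regions with 19 in all libraries, 13.1 per 100 kb against a median of 11.4 on chromosome 12. Its window reaches the ends of Klf11 and Cys1, and those hold its 2 widest all-library regions away from the promoter, at means of 1690 and 1124 bp. Inside Grhl1 the widest was chr12:24592532-24593724, with 809, 1127, 843 and 802 bp. Grhl3 was sparse: 23 regions, of which 2 were in all libraries, and 80.9% of chromosome 4 genes had at least as many. One is at the shared end of Nipal3 and Stpg1. The other lies inside Grhl3 (chr4:135546835-135548417), centred 5.7 kb from its lower-coordinate end, with 863 and 683 bp in vehicle and 958 and 1394 bp in dDAVP. Both dDAVP values were above both vehicle values, on a log2 difference of 0.63 (SE 0.35, adjusted p = 1.00 by limma).

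Ovol1 was the densest locus, with 20 of its 52 regions in all libraries, 17.9 per 100 kb against a median of 13.0 on chromosome 19. At least as dense were 1.41% of all protein-coding genes and 9.79% of those on chromosome 19. Of the 20, 12 lie outside protein-coding genes. The widest was inside Ap5b1 (chr19:5567144-5569261) with 2085, 2047, 2097 and 2022 bp, wider than the Ovol1 gene end itself, followed by those at the ends of Snx32 (1321, 1162, 968 and 1510 bp) and Kat5 (1586, 1081, 1052 and 1163 bp). Ovol2 had 47 regions and 5 in all libraries. At the shared end of Snx5 and Mgme1 the widths were 1119, 1158, 1174 and 1152 bp, and at that of Pet117 and Kat14 966, 1017, 1015 and 1016 bp, so both were close to equal in all libraries. Of the other regions 26 were in vehicle replicate 1 alone.

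Both Esrp genes had a wide gene-end region. All-library regions per 100 kb were 1.94 at Esrp1, against a median of 2.93 on chromosome 4. At Esrp2 they were 4.68, against 5.7 on chromosome 8. At least as dense were 74.5% of all protein-coding genes for Esrp1 and 49.8% for Esrp2. Esrp1 had 8 regions in 154.9 kb, the fewest of the 10 genes, and 3 in all libraries: its own end, the end of Dpy19l4, and one 28.3 kb above the gene (chr4:11415041-11415225) with 92, 118, 185 and 79 bp. Esrp2 had 32 regions and 5 in all libraries, of which 2 were at its own end, 1 each was at the ends of Pla2g15 and Slc7a6, and 1 of 278 bp was inside Nfatc3.

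Cdh1 had 73 regions with 20 in all libraries. This was 12.0 per 100 kb, against a median of 5.70 on chromosome 8, and 13.3% of chromosome 8 genes were at least as dense. By number, which a long gene raises, 3.74% had as many. Inside the gene, the widest (chr8:106619468-106620751) is centred 16.8 kb from the lower end and measured 1248, 1270, 1227 and 1275 bp, close to equal in all libraries. Outside genes, 41.5 kb below Cdh1 on the side of its paralog Cdh3, the widest (chr8:106560496-106561871) measured 817, 948, 1152 and 919 bp. Cdh16, on the same chromosome, had 41 regions with 9 in all libraries, 7.35 per 100 kb. Of these 3 were at the ends of Pdp2, Rrad and Ciao2b. Epcam had 47 regions with 8 in all libraries and none of them inside the gene away from its ends. The widest of those outside genes was 25.8 kb below Epcam (chr17:87609104-87610187), with 961, 818, 872 and 896 bp.

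Region counts depend on the 50 kb limit. The all-library region closest inside it was at Cys1, 49.09 kb from Grhl1, with a mean width of 1124 bp, and the closest outside was 50.49 kb from Cdh16, with 491 bp.

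**Figure D2:**
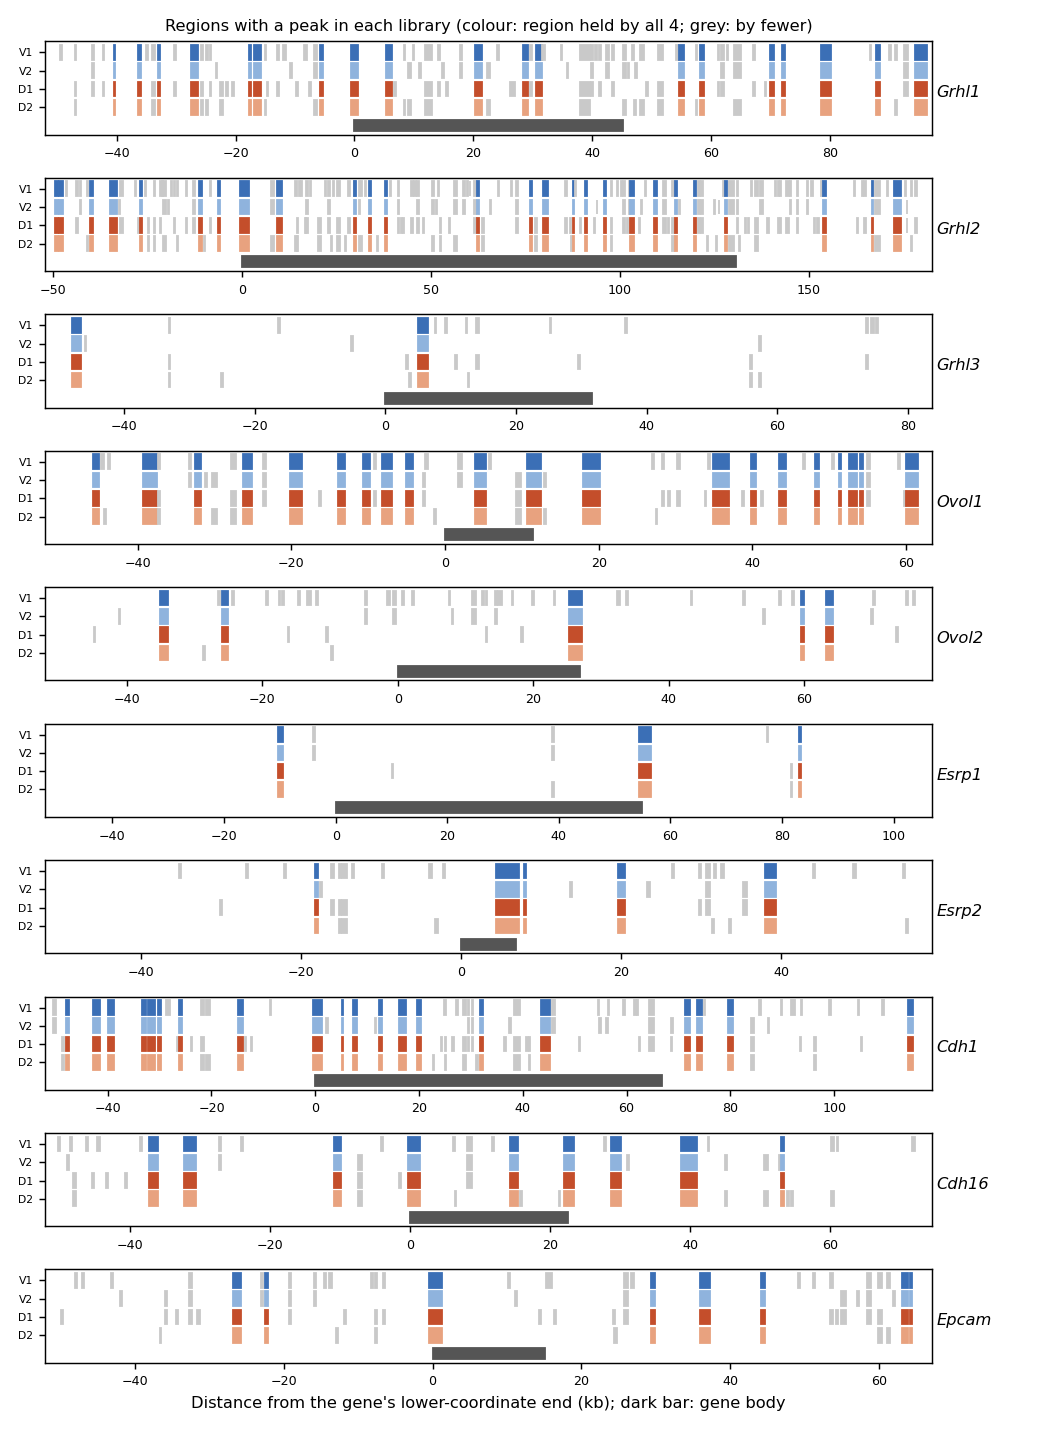
Merged regions around each gene, by distance in kb from the gene's lower-coordinate end, with a row per library (V1 and V2, vehicle; D1 and D2, dDAVP) in which a block stands for a region with a peak in that library, drawn over the whole merged region and at least 0.25 kb wide. Coloured blocks are held by all 4 libraries and grey ones by fewer, so the filled stretches of Grhl2 (26 coloured) and Ovol1 (20) contrast with Grhl3 (2) and Esrp1 (3).

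**Figure D3:**
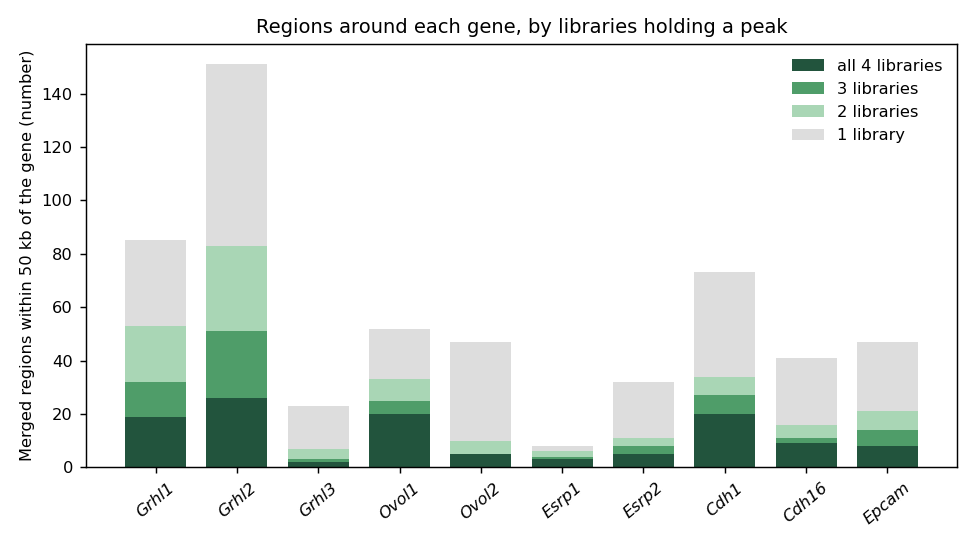
Number of merged regions within 50 kb of each gene (vertical axis), stacked by how many libraries hold a peak. Grhl2 has 151 regions and Esrp1 has 8, and regions held by 1 library make up the largest part at 8 of the 10 genes.

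A list of 41 further epithelial genes held keratins, claudins, tight junction and desmosome proteins, catenins, proteases and epithelial transcription factors. Of the 41, 39 had a peak at an end in each of the 4 libraries (95.1%, against 65.0% of all protein-coding genes). The others were Ctnnd1, which encodes p120 catenin (3 libraries), and Tjp1, which encodes ZO-1 (1 library). The list had a median of 12.0 all-library regions within 50 kb, and the 10 genes a median of 8.50, against 6.0 over all protein-coding genes. Among those with many were Krt8 (23), Pard6b (20) and Jup (19).

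Genes of the mesenchymal state and its regulators were open at 11 of 20 (55.0%, against 65.0% of all protein-coding genes), with a median of 3.00 all-library regions against 6.0. Snai1, Snai2, Snai3, Twist1 and Twist2, regulators of that state, were among those open, and so were the mesenchymal genes Vim, Fn1 and Cdh2. Zeb2 had a gene-end peak in 3 libraries and Zeb1 in 1. Prrx1 and Col3a1 had none in any library. The most all-library regions in the list were around Col1a1 (14), Sparc (13), Snai1 (11) and Foxc2 (11). An open gene end is not a measure of expression.

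Among the 23 cadherin genes, which include Cdh1 and Cdh16, 8 (34.8%) were open in all 4 libraries, against 65.0% of all protein-coding genes. No gene-end peak in any library was found at 7, namely Cdh8, Cdh9, Cdh12, Cdh17, Cdh18, Cdh19 and Cdh26, and at 4203 of all 21887 protein-coding genes. The most all-library regions were around Cdh23 (48), Cdh22 (26), Cdh13 (22) and Cdh1 (20). Long genes have wide windows, which raises these counts. Per 100 kb the family's median was 1.52, against 12.0 at Cdh1, 7.35 at Cdh16 and 4.66 for all protein-coding genes.

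The comparison the study was made for, dDAVP against vehicle, found no change in these loci that passed a test. Of the 559 regions, 14 (2.5%) were dDAVP-only, meaning peaks in the 2 dDAVP libraries alone, against 1.61% of all regions. Another 20 (3.58%) were vehicle-only by the same definition, against 3.35%. The same count for both replicate 1 libraries alone was 34 (6.08%, against 8.79%) and for both replicate 2 libraries alone 7 (1.25%, against 1.19%). Vehicle replicate 1 and dDAVP replicate 2, which cross the treatments, shared 14 regions that the others lacked (2.5%, against 3.17% of all regions), and the other crossed pair shared 5 (0.894%, against 1.57%). Vehicle-only and replicate 2 shares were close to the background, the dDAVP-only share was above it and the others were below it. The counts are small and were not tested against it, and they are not read as a result about these genes. Leaving out a library also drops a condition of the definition, so the counts then rise largely by construction. Without vehicle replicate 1, vehicle replicate 2, dDAVP replicate 1 or dDAVP replicate 2, dDAVP-only regions numbered 34, 18, 47 and 84. In the same order, vehicle-only regions numbered 66, 166, 51 and 32.

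Treatment-specific regions are those that were dDAVP-only or vehicle-only. The peaks in the 14 dDAVP-only regions measured 72 to 689 bp with a median of 156 bp, against 182 bp over all dDAVP-only regions. Those in the 20 vehicle-only regions measured 72 to 852 bp with a median of 230.5 bp, against 206 bp over all vehicle-only regions. Grhl2 held 6 of each kind, and 5 of its dDAVP-only regions were inside the gene. The widest of those (chr15:37253067-37253755) had 689 bp in dDAVP replicate 1 and 72 bp in dDAVP replicate 2, and the next (chr15:37296400-37296916) 516 and 163 bp. Its widest vehicle-only region was in the neighbouring gene Ncald (chr15:37369841-37370708), with 852 and 242 bp in vehicle replicates 1 and 2. In all of these, the libraries of the same treatment differed severalfold.

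Cdh1 held 4 dDAVP-only and 2 vehicle-only regions. Of the former the widest lay in Cdh3 (chr8:106554570-106554940; 371 and 226 bp) and the next inside Cdh1 (chr8:106628336-106628590; 175 and 254 bp). Of the latter the widest was also in Cdh3 (chr8:106552799-106553420), with 111 and 622 bp. Ovol2 held 4 vehicle-only regions and no dDAVP-only region. The widest is inside the gene (chr2:144316098-144316746; 353 and 649 bp), and another lies at its lower-coordinate end (chr2:144304511-144304909; 324 and 284 bp), the only treatment-specific region at an end of the 10 genes. Grhl1, Ovol1, Epcam and Cdh16 held 2, 2, 2 and 1 vehicle-only regions and 1, 0, 0 and 1 dDAVP-only regions. The dDAVP-only region at Grhl1 lies in Taf1b (chr12:24549531-24550118; 99 and 522 bp) and that at Cdh16 is 47.6 kb below the gene (chr8:104553871-104554268; 146 and 385 bp). Of the vehicle-only regions, the widest at Grhl1 (chr12:24614519-24615001; 313 and 377 bp) and Ovol1 (chr19:5550835-5551329; 309 and 388 bp) are inside the genes. Esrp1 held 1 of each kind, Grhl3 held 1 dDAVP-only region and Esrp2 held none.

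The 10 windows together contained 400 and 243 peaks in vehicle replicates 1 and 2 and 303 and 230 in dDAVP replicates 1 and 2. The means were 321.5 ± 111 for vehicle and 266.5 ± 51.6 for dDAVP (SD, n = 2 each, two-sided exact permutation p = 0.667). A comparison of 2 libraries with 2 cannot give an exact p under 0.333. The order follows the lengths of the lists, and without vehicle replicate 1 the difference turned from -55 to 23.5 peaks. Scaled per 100000 peaks of the library, the 4 values were 102, 117, 104 and 112. Ovol2 was the 1 gene of the 10 with both vehicle counts above both dDAVP counts, 36 and 13 against 11 and 7 peaks (exact permutation p = 0.333, the smallest this design allows), a pattern found at 6.49% of protein-coding genes. The ratio of dDAVP to vehicle means there was 0.367, and 0.692 without vehicle replicate 1. No gene of the 10 had the opposite pattern, which 1.24% of all genes had. Scaled per 100000 peaks, Ovol2 kept its pattern with 9.14 and 6.28 against 3.77 and 3.4 (9.22% of all genes). On that scale Grhl3 had the opposite one, with 3.30 and 3.38 against 3.43 and 3.89 (13.2% of all genes).

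**Figure D4:**
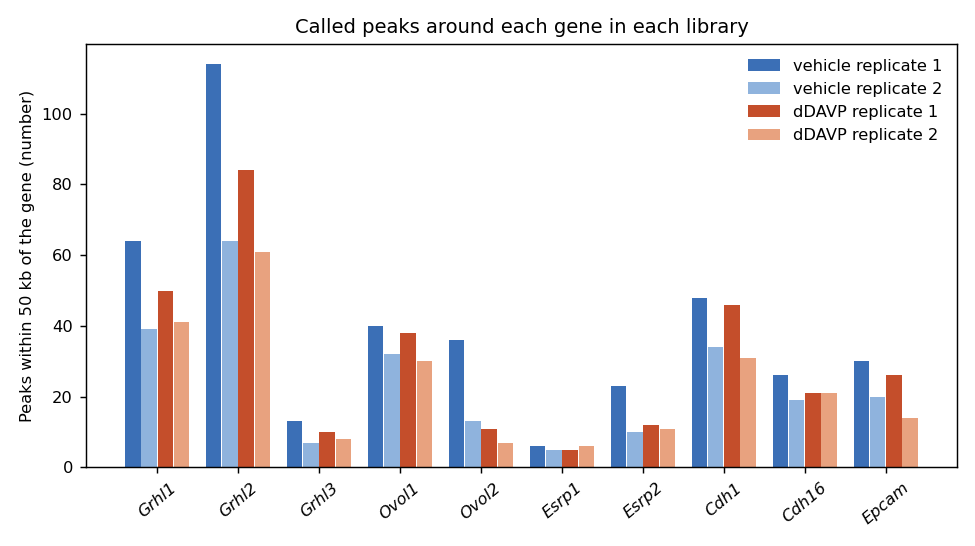
Number of called peaks within 50 kb of each gene (vertical axis) in each library. Vehicle replicate 1 has the most peaks at 9 of the 10 genes and ties at Esrp1, and Ovol2 has 36 and 13 in vehicle and 11 and 7 in dDAVP.

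Width was compared at every region held by all 4 libraries with limma on quantile-normalised log2 widths. None of 88231 regions passed a Benjamini-Hochberg adjusted p of 0.05 (0.0%), and none of the 117 around these genes did. At an unadjusted p under 0.05 there were 4655 regions in all (5.28%) and 6 around these genes (5.13%). By raw width, both dDAVP values were above both vehicle values at 17 of the 117 (14.5%, against 12.9% of all regions) and both vehicle values were higher at 16 (13.7%, against 17.5%). The median log2 difference was 0.05 over the 117 and 0.037 over all regions.

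At the gene ends the median coefficient of variation over the libraries was 9.08%, against 12.7% at ends of other genes in the same windows and 32.8% over all regions. At Esrp2, the widest, the dDAVP to vehicle log2 difference was -0.18 (SE 0.28, adjusted p = 1.00 by limma), and at the first start of Grhl1, where both dDAVP values were higher, 0.19 (SE 0.31, adjusted p = 1.00 by limma). Without vehicle replicate 1 the Grhl1 value was -0.01.

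The 6 regions with an unadjusted p under 0.05 all lay away from gene ends. Below Grhl2, chr15:37184533-37185394 had 767 and 609 bp in vehicle and 73 and 216 bp in dDAVP, a log2 difference of -2.33 (SE 0.66, adjusted p = 0.899 by limma). Inside Grhl2, chr15:37347511-37347914 had 404 and 277 bp in vehicle and 163 and 105 bp in dDAVP, and chr15:37262567-37263111 had 249 and 244 bp in vehicle and 483 and 480 bp in dDAVP. The log2 differences were -1.27 and 1.07, so regions of this gene differed in both directions. Above Cdh1, chr8:106676941-106677893 had 338 and 350 bp in vehicle and 881 and 621 bp in dDAVP (log2 difference 1.20). The others were inside Taf1b beside Grhl1 (143 and 111 bp against 222 and 241 bp) and 39.9 kb above Ovol1 (139 and 134 bp against 229 and 271 bp). Adjusted p was 0.89 to 0.938 for all 6 by limma, and the share of 5.13% is near that of all regions.

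**Figure D5:**
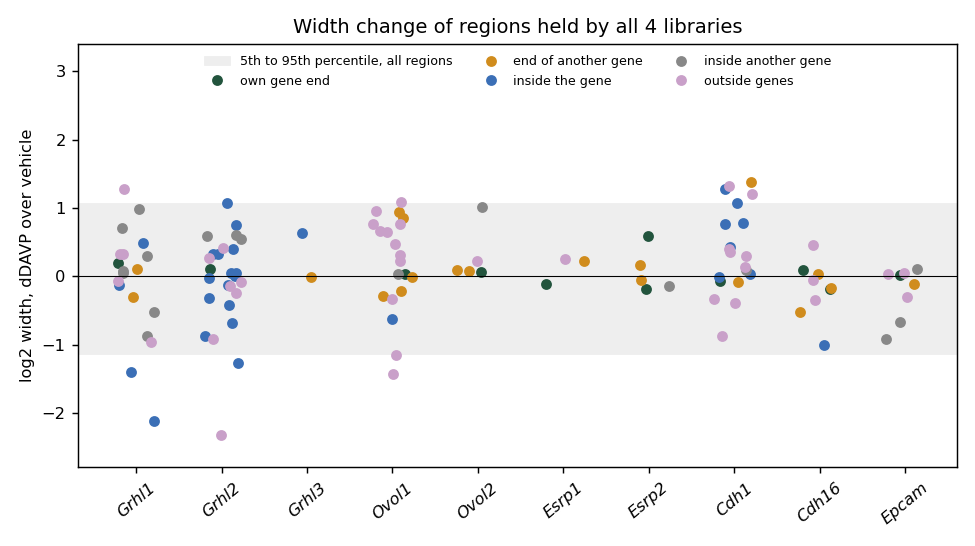
Difference in log2 width, dDAVP minus vehicle (vertical axis), for each of the 117 regions held by all libraries, by gene and coloured by place. The grey band spans the 5th to 95th percentile of all 88231 regions (-1.145 to 1.054), and the gene's own ends, in dark green, lie near 0 apart from the narrow region beside Esrp2 at 0.59.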

How the data were processed

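The authors deposited 1 peak list per library, which holds positions only: 3 columns for the chromosome and both ends of a peak, with no score. Per the submitters' processing notes, the build was mm10 and the tools were MACS2, Bowtie2, cutadapt, Picard, SAMtools and bedtools. Tool versions, peak thresholds, duplicate handling and read shifting: not given in the sources used here. Depth per library is unknown, so no interval that needs it is given. A longer list holds more called peaks, which moves presence and absence.

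Groups and replicate numbers came from sample titles. Gene bodies came from a RefSeq table on GRCm38.p6 (21887 protein-coding genes, without exons), and all members and list genes matched it. RefSeq promoters matched 4 members, and Grhl2, Ovol1, Esrp1, Esrp2, Cdh1 and Cdh16 were placed by gene ends. Peaks overlapping by 1 bp or more were merged, and touching peaks were kept apart. Widths were fitted with limma 3.58.1 in R 4.3.3, and peak numbers with exact permutation tests, in Python 3.11.15. The merging and the fit were tested on simulated data. The width changes planted there were larger than any difference around these genes, so the test does not show that smaller ones would be found. Alternatives were other windows, merging, peak selection, normalization, a width filter, the replicate block and leaving out each library.

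Members and gene lists were chosen with earlier results of these data known. Named by rule were all members, up to 3 widest all-library regions away from the ends of each, up to 2 treatment-specific regions per member and direction, the members of each list without a gene-end peak and the 4 with the most regions. Not every region or list gene the rule takes is given in full, and some are not reported here. Other named list genes and regions, including the 6 with the lowest unadjusted p, were chosen after their values were seen.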

Additional observations from a re-analysis of the deposited data

How the results depend on the processing

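All settings kept the absence of a call in the width fit: 0 regions passed with the replicate block (lowest adjusted p 0.874 by limma), median centring, a 200 bp filter, or without any 1 library, where the lone library is assumed to vary like the others. The replicate numbers are not stated to pair cultures, and with 2 pairs the correlation of deviations between same-numbered libraries, 0.0969, does not settle it. The block changed no call. Of the 10 genes, 9 had a promoter or gene-end peak under both alternatives, a window of 1 kb either side of the start and the wider peaks alone. The 1 kb window could only add genes and left those placed by gene ends as they were. Counts of regions followed the window by construction. All-library, dDAVP-only and vehicle-only regions numbered 52, 7 and 12 within 10 kb, 181, 23 and 31 within 100 kb, and 39, 7 and 8 in the gene bodies. With only peaks at least as wide as their library's median they were 66, 3 and 10. With each library at its widest 205771 peaks there were 13 vehicle-only and 15 dDAVP-only regions, so their order turned. Requiring a peak over 50% of the region, chosen for this count after seeing the data, left 54 all-library regions. Leaving out 1 library gave 118 to 143 all-library, 18 to 84 dDAVP-only and 32 to 166 vehicle-only regions. A condition is dropped with the library, so these counts rise largely by construction. The peak difference ranged from -133.5 to 23.5, and the log2 width difference at the first start of Grhl1 from -0.01 to 0.37. Of the 6 regions with an unadjusted p under 0.05 and the Esrp2 end, each kept its direction in every setting that could be run. The treatments did not overlap in raw width at any of these, so leaving out 1 library could hardly turn the direction. The replicate block cannot change the difference in this balanced design. The agreement is therefore largely by construction. For the inside regions of Grhl3 and Grhl1 with log2 differences of 0.63 and -2.12, values under the alternatives are not reported here. The causes were not tested.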

Other observations

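The window of Ovol2 had a ratio of dDAVP to vehicle peaks of 0.367. Among 14853 protein-coding genes with a mean of at least 10 peaks in their windows, 6 had a ratio as low, counting Ovol2, and the median ratio was 0.852. Covered length there was 12.3 and 6.68 kb in vehicle and 6.11 and 5.29 kb in dDAVP. Without vehicle replicate 1, which alone held 26 of the 47 regions, the ratio was 0.692. The gene was singled out after its values were seen.

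Of the 87 all-library regions away from any gene end around these genes, 4 had a coefficient of variation under 5%. Of all 88231 all-library regions, gene ends included, 6.12% did. Among them were the Cdh1 region 16.8 kb into the gene (1.76%), the region in Ap5b1 beside Ovol1 (1.67%) and a region 22.2 kb below Epcam (380, 372, 356 and 361 bp, 2.94%). A region inside Grhl1 (chr12:24602719-24603820) measured 734 and 731 bp in vehicle and 72 and 339 bp in dDAVP, a log2 difference of -2.12 (SE 0.88, unadjusted p = 0.075 and adjusted p = 0.988 by limma).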
